A study of Mus musculus with 69 samples.

Results

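Matrix metalloproteinases (Mmp), ADAMTS proteases (Adamts), their relatives without a protease domain (Adamtsl) and the tissue inhibitors of metalloproteinases (Timp) were examined in cultured murine vascular cells. Members were the protein-coding genes whose GRCm39 symbol starts with Mmp, Adamts, Adamtsl or Timp followed by a number, whatever their level. They made up 52 of the 56953 gene identifiers in the count tables, among 21664 protein-coding genes, and comprised 24 Mmp, 19 Adamts, 5 Adamtsl and 4 Timp genes. Mmp24os1 belongs to them by its name only, since it is a gene antisense to Mmp24. In total, 30 members reached a mean of 3 FPM (fragment counts scaled to the size of the library) in at least 1 cell type, and these are described singly. The other 22 stayed below, with Mmp13 (2.13 FPM), Mmp27 (1.95 FPM) and Mmp12 (1.91 FPM), each in WT VSMC, nearest to the limit, and Mmp17 (8.39 FPM in WT VSMC) just above it.

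The cells came from male C57BL/6 mice and were sequenced as poly(A) RNA. WT VSMC and KO VSMC were primary smooth muscle cells of the thoracic and abdominal aorta, the latter from animals with a floxed Egfr gene and a Cre recombinase under the SM22 promoter. EC were primary cells of the heart that had been selected with beads as CD45- and CD31+ and whose labels give the genotype as WT. The methods of the study give 24 h without serum and a limit of passage 7 in their part on VSMC culture, and neither in that on EC. Cells were then kept for 24 h under Control conditions, with 20 mM glucose and free fatty acids (HG + FFA), with 30 nM angiotensin II and a catecholamine at 300 nM (AII + NA) or with ALL stressors. The vehicle albumin was present in every condition. The labels give 100 µM free fatty acids and epinephrine, where the methods of the study name oleate with palmitate, each at 100 µM, and norepinephrine. Libraries of a set share the animal and the passage. WT VSMC formed sets 1 to 4 with n = 4 in each condition, KO VSMC sets 5 to 8 with n = 4 except for n = 3 under ALL, and EC sets 9 to 18 with n = 9 for Control and AII + NA and n = 10 for HG + FFA and ALL. The ALL library of set 5, the Control library of set 10 and the AII + NA library of set 15 were not analysed here. EC sets 17 and 18 were from the same animal, which leaves 9 EC animals, and EC sets 15 and 16 came from animals that also gave KO VSMC. The animals of EC sets 9 and 10 were those of WT VSMC sets 1 and 2.

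As background, matrix metalloproteinases are zinc-dependent enzymes that cleave collagens, elastin and other proteins outside the cell, and most are secreted as inactive precursors while the membrane-type enzymes stay anchored at the cell surface. ADAMTS proteases trim procollagens, proteoglycans such as versican and aggrecan, and microfibril proteins, and the ADAMTS-like proteins bind to the same matrix without cutting it. The TIMP proteins block the active site of these enzymes, and the balance between enzymes and inhibitors sets how fast the wall of a vessel is remodelled.

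The 69 libraries held between 17166133 and 43240489 counts. The targeted gene Egfr was at 246 to 430 FPM in WT VSMC sets, and at 1.25, 0.96 and 1.84 FPM in KO VSMC sets 6, 7 and 8, but at 36.5 FPM in set 5. Set 5 also stood apart in its sum of 7 fibroblast markers (6150 FPM against 1530 to 2190 FPM in the other KO VSMC sets and 4430 to 9780 FPM in WT VSMC sets), of 8 smooth muscle markers (3770 FPM against 970 to 2100 FPM and 918 to 1420 FPM) and of 6 macrophage and leukocyte markers (153 FPM against 13.5 to 35.6 FPM and 34 to 204 FPM). Of 8 smooth muscle markers, 7 had a mean of at least 3 FPM in each of the 3 cell types, with Acta2 at 879 FPM in WT VSMC, 1420 FPM in KO VSMC and 1000 FPM in EC. The others in WT VSMC were Myl9 (215 FPM), Smtn (66.4 FPM), Lmod1 (45.2 FPM), Cnn1 (22.9 FPM), Myh11 (7.4 FPM), Tagln (3.87 FPM) and Des (1.44 FPM). Among the fibroblast markers, Col1a1 was at 3950 FPM and Dcn at 1650 FPM in WT VSMC. The sum of 9 endothelial markers spanned 1.68 to 56.8 FPM in WT VSMC sets and 57.2 (set 9), 58.2 (set 13) and 133 FPM (set 11) up to 4220 FPM (set 12) in EC sets, with Cldn5 under 1 FPM, so that some EC sets carried little RNA of the labelled cell type. EC sets 11 and 13 had the most fibroblast marker RNA (9150 and 10000 FPM). Counts of called members that rest on set 5 or on EC sets 15 and 16 are therefore given with and without them.

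The genes of the family differ in the sequence before their start. Promoter sequences, from 250 bases before to 50 bases after the start (position 1 is the first transcribed base, position -1 the base before it), came from RefSeq with coordinates of GRCm38.p6 and were at hand for 36 members. Those without an entry were Adamts4, Adamts5, Adamts6, Adamts7, Adamts8, Adamts10, Adamts15, Adamts16, Adamts19, Adamtsl1, Mmp2, Mmp9, Mmp16, Mmp17, Mmp19 and Mmp24os1. A group of 10 Mmp genes lies side by side on chromosome 9 (7272514 to 7699587 in GRCm39). The AP-1 motif, searched as TGANTCA on both strands, was in 7.81% of all 32851 promoters and in those of 8 members, namely Mmp3, Mmp12, Mmp13, Mmp10, Mmp1a, Mmp1b, Mmp7 and Mmp20, each a gene of that group. The TATA letters TATAAA on either strand were in 13.6% of all promoters and in those of 12 members. No member's promoter held the CArG box of serum response factor, which was in 1.63% of all promoters. The 4 windows from position -100 to +10 printed here are each on the plus strand of chromosome 9. They were chosen because Mmp3 is the most abundant protease of the family in WT VSMC and Mmp12 was called there under ALL stressors. The other reasons were that Mmp13 had the smallest FDR under HG + FFA in KO VSMC and that Mmp10 is their neighbour at near 0. Capitals mark AP-1 and TATA letters.
Mmp3 (chr9:7445722-7445831): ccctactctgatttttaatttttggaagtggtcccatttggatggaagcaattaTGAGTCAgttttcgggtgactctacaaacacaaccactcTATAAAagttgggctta
Mmp12, downstream start (chr9:7347274-7347383): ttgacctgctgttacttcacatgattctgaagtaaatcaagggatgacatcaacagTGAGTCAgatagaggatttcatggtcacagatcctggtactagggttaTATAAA
Mmp13 (chr9:7272414-7272523): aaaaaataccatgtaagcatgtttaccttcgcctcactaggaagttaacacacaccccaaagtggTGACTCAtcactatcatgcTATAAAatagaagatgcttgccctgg
Mmp10 (chr9:7502242-7502351): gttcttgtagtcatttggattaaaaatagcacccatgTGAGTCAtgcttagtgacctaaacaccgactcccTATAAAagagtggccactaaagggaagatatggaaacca
The AP-1 letters began at position -46 in Mmp3, -44 in Mmp12, -35 in Mmp13 and -63 in Mmp10. The upstream start of Mmp12 held neither motif. The promoters of Adamts1 and Adamtsl2 are of another kind, with TATAAA and GC box letters (GGGCGG on either strand, in 35.7% of all promoters and in 22 of the 36 members), marked in capitals, and no AP-1 letters. They are shown because Adamts1 rose most in WT VSMC under ALL stressors among members above 3 FPM, and Adamtsl2 had the lowest log2FC among the members called in EC.
Adamts1 (chr16:85803064-85803363, minus strand): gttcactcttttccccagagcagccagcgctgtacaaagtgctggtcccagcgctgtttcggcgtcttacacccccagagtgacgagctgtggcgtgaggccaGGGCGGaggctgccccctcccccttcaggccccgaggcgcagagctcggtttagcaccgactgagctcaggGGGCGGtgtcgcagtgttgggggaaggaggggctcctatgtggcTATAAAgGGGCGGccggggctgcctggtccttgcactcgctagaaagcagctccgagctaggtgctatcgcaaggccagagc
Adamtsl2 (chr2:27079129-27079428, plus strand): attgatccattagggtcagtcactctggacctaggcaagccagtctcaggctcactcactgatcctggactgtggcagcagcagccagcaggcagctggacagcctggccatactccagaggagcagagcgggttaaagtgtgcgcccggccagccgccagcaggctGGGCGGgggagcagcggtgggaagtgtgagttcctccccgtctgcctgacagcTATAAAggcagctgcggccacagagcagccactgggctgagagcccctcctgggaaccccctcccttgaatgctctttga
A match of letters describes the sequence and is no measurement of binding.

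Inhibitor RNA made up most of the family's FPM. Timp2, which also helps to activate the Mmp2 precursor at the cell surface, accounted for 44.5% of the summed FPM of all 52 members in WT VSMC (41.4 to 50.5% over libraries), 52.4% in KO VSMC and 37.4% in EC, and the 4 Timp genes together for 53.6%, 67.3% and 59.2%. Per length, Timp2 was also the highest member in each cell type, with a mean FPKM (FPM per kilobase of exon) of 1347 for WT VSMC, 1250 for KO VSMC and 637 for EC. It was at 6013 ± 411 FPM over WT VSMC sets and 5596 ± 1096 FPM over KO VSMC sets (SD, n = 4 each), where set 7 was highest (6761 FPM) and set 8 lowest (4119 FPM). Timp1 and Timp3 varied far more between sets. Timp1 was at 500 ± 318 FPM in WT VSMC (SD, n = 4), and in EC it ranged from 27.9 FPM in set 18 to 2198 FPM in set 11. Timp3, the inhibitor that is held in the matrix, was at 718 ± 335 FPM in WT VSMC and 1564 ± 878 FPM in EC (SD, n = 10), and KO VSMC set 6 at 3406 FPM lay above all VSMC sets. Timp4 was at or below 0.588 FPM in every library. Because bulk RNA was measured, fewer cells of a type and less RNA per cell cannot be told apart in any of these levels.

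**Figure D1:**
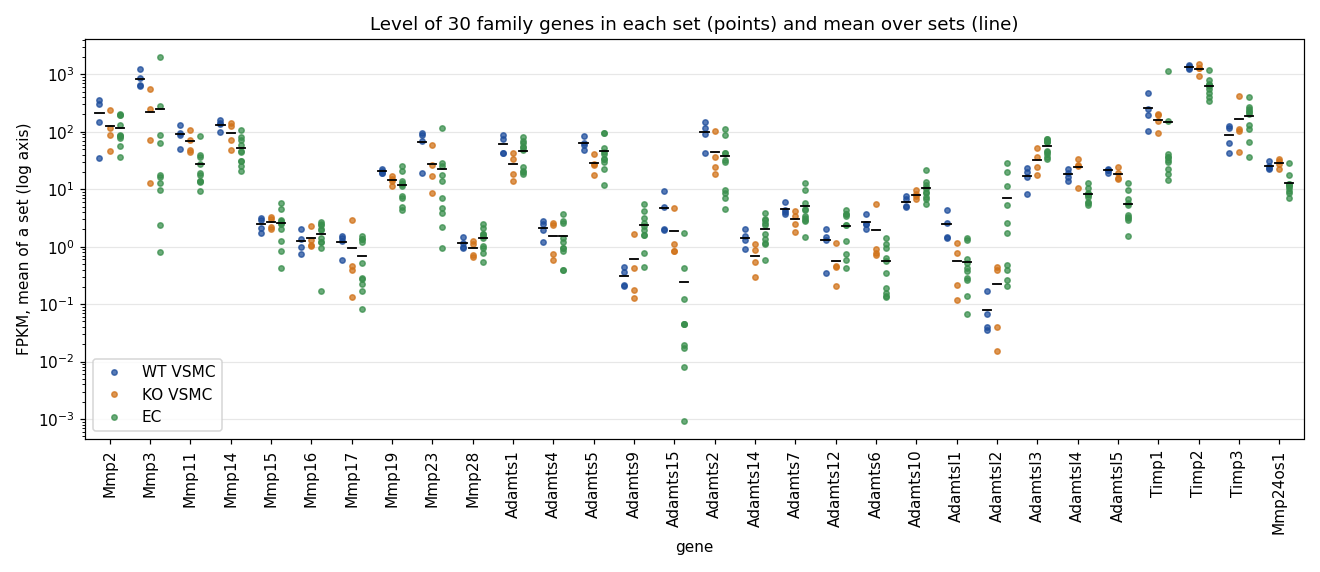
Level of the 30 members with a mean of at least 3 FPM in a cell type, as FPKM on a log axis, with 1 point for each set (the mean of its libraries) and a line for the mean over sets. Timp2 is highest in every cell type, and Mmp3 spans more than any other Mmp gene in EC, with set 11 on top.

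Among the proteases, Mmp3, a stromelysin that degrades proteoglycans and activates other proenzymes, was the most abundant by length in WT VSMC, with a mean FPKM of 840. The next in WT VSMC were Mmp2 (a gelatinase, 211 FPKM), Mmp14 (the membrane-type activator of Mmp2, 133 FPKM), Adamts2 (which removes the N-propeptide of procollagen, 100 FPKM), Mmp11 (92.2 FPKM) and Mmp23 (67.1 FPKM). The proteoglycan-cleaving Adamts5 and Adamts1 followed at 63.9 and 61.6 FPKM. The spread between sets exceeded the gaps between most of these neighbours in the order. For Mmp2, WT VSMC set means were 514, 1070, 126 and 1272 FPM in sets 1 to 4, so that set 3 was far below the others. For Mmp3 they were 1107, 1195, 1543 and 2206 FPM. In EC, Mmp3 ran from 1.48 FPM in set 14 and 4.35 FPM in set 12 to 3602 FPM in set 11. The fibroblast marker sum was 850, 615 and 9150 FPM in these sets. It was 10000 FPM in set 13 and 4440 FPM in set 17, where Mmp3 was at 510 and 23.4 FPM. The part of other cell types in these levels was not tested.

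Mmp3 stood alone in its cluster. Its 9 neighbours on chromosome 9 did not reach 3 FPM in any cell type. Of these 9, 7 carry AP-1 letters in the promoter window, as Mmp3 does. A part of these letters in the levels was not tested. Mmp13, a collagenase, was at 2.13 ± 1.85 FPM (SD, n = 4) in WT VSMC, Mmp12, the macrophage metalloelastase, at 1.91 ± 2.63 FPM, and Mmp10 at 0.168 FPM. Of the membrane-type enzymes other than Mmp14, Mmp16 (19.2 FPM), Mmp15 (13.3 FPM) and Mmp17 (8.39 FPM) were low in WT VSMC. Mmp24 and Mmp25 stayed under 3 FPM in all cell types. Adamts13, the protease of von Willebrand factor, was near 0 in each cell type, EC included.

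The members that edgeR called between unstressed EC and WT VSMC were all ADAMTS or ADAMTS-like genes. In edgeR's quasi-likelihood test with Benjamini-Hochberg adjustment over all genes tested, 7 of 36 members tested differed between Control libraries (4 higher and 3 lower in EC), where 13% of all genes tested were called (7.33% higher and 5.7% lower). At an unadjusted p under 0.05 there were 14 (4 higher and 10 lower in EC), against 30.9%. The median log2FC was -0.79 over the members tested and 0.04 over all genes. Cell type, organ and batch label coincide in this comparison and cannot be told apart, and the EC libraries of sets 17 and 18 were summed for the test. The Control libraries of WT VSMC set 1 and EC set 9 came from the same animal, and the test did not pair them.

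Adamtsl3, a matrix protein without protease activity, was at 85.0, 137, 150 and 198 FPM in the Control libraries of WT VSMC sets 1 to 4 and at 276 to 640 FPM in those of EC (median 530 FPM). Every EC library was above every WT VSMC library, with a log2FC of 1.81 (SE 0.27, FDR 0.00255 in edgeR). Adamts9, a protease of versican, was at 3.21, 4.05, 4.98 and 2.53 FPM in WT VSMC and at 7.16 to 78.2 FPM in EC (median 29.9 FPM). The groups did not overlap, with a log2FC of 3.297 (SE 0.63, FDR 0.00847 in edgeR). Part of the exons of Adamts9 (12.2%) overlaps genes on the opposite strand, and the strand setting of the counting is not stated.

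Adamtsl2, which binds microfibrils and the TGF-beta binding proteins, was close to absent in WT VSMC (0.45, 0.24, 0.44 and 2.24 FPM) and ran from 2.72 FPM to 295 FPM in EC (median 19.8 FPM). Its log2FC of 6.32 (SE 1.55, FDR 0.0224 in edgeR) goes with a wide EC spread, in which sets 11, 16 and 17 were high and sets 9, 12, 13 and 14 low. Adamts10, which acts on fibrillin microfibrils, was at 79.5, 84.9, 66.8 and 69.2 FPM in WT VSMC and at 67.2 to 233 FPM in EC (log2FC 0.84, SE 0.23, FDR 0.0308 in edgeR), with 1 EC library inside the WT VSMC range.

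Of the members that were lower in EC, Adamtsl5 was at 143, 141, 132 and 148 FPM in WT VSMC and at 8.98 to 100.2 FPM in EC (median 27.8 FPM), without overlap (log2FC -1.95, SE 0.47, FDR 0.0204 in edgeR). Adamtsl4, a microfibril-associated protein known from the zonule of the eye, was at 89.3, 101, 93.4 and 132 FPM in WT VSMC and at 36.7 to 86.1 FPM in EC (log2FC -0.99, SE 0.23, FDR 0.019 in edgeR). Adamts6 was at 24.4, 22.4, 20.3 and 42.6 FPM in WT VSMC and at 0.93 to 12.9 FPM in EC (log2FC -2.25, SE 0.58, FDR 0.0265 in edgeR). In DESeq2, 12 members were called against 21.3% of all genes. With a WT VSMC set left out, 2 to 4 members were called, and without EC sets 15 and 16 the calls of Adamtsl3 and Adamts9 were the 2 that passed. For these fits the share of all genes called was not counted. Of the other genes of extracellular proteolysis, a list of 47, 4 of 41 tested were higher in EC and 7 lower. Pcolce2, an enhancer of procollagen processing, was higher (81.0 against 11.4 FPM, log2FC 2.83), and the cathepsins Ctsd (1166 against 2564 FPM) and Ctsb (1070 against 2785 FPM), the sheddase Adam15 (log2FC -0.83) and the serine protease Fap (log2FC -3.32) were lower.

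In WT VSMC, neither HG + FFA nor AII + NA alone changed a member beyond the threshold. Of 36 members tested, edgeR called 0 under HG + FFA, against 0.538% of all genes. At an unadjusted p under 0.05 there were 6, against 11.2%, and in DESeq2 0, against 2.01%. Under AII + NA edgeR called 0, against 0.0532%, with 6 at an unadjusted p under 0.05, against 9.42%, and 0 in DESeq2, against 1.13%. With ALL stressors, 7 of 36 were called, 4 higher and 3 lower, where 7.45% of all 16905 genes tested were called (3.92% higher and 3.53% lower). DESeq2 called 8, against 10.1% of all genes, and 14 were at an unadjusted p under 0.05, against 21.7%. The median log2FC of the members tested was 0.01 and that of all genes -0.01. By the DEG rule of the study (FDR under 0.05 in both tools, at least 3 FPM in a group and an absolute log2FC of at least 0.64), Adamts1, Adamts6 and Mmp12 qualified, 3 of 36 against 2.22% of all genes.

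Adamts1 (GRCm39 chr16:85590579-85600009), a secreted protease of versican and aggrecan, was at 249.1, 148, 355 and 273 FPM in the Control libraries of sets 1 to 4 and at 230, 336, 643 and 619 FPM under ALL. It was higher under ALL in sets 2, 3 and 4 and slightly lower in set 1. The log2FC was 0.78 (SE 0.17, FDR 0.0097 in edgeR). Under AII + NA it was at 276, 239, 458 and 442 FPM, above Control in all 4 sets, with a log2FC of 0.46 that did not pass (SE 0.17, FDR 0.346 in edgeR). Under HG + FFA the log2FC was 0.12 (SE 0.17).

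Adamts6 (chr13:104424343-104633203), a protease related to Adamts10, moved the other way. It fell from 24.4, 22.4, 20.3 and 42.6 FPM under Control to 19.2, 12.8, 12.4 and 18.6 FPM under ALL. Each set was lower, and all ALL libraries lay below all Control libraries. The log2FC was -0.75 (SE 0.16, FDR 0.00942 in edgeR), and under AII + NA, where each set was lower too, it was -0.49 and did not pass (SE 0.16, FDR 0.276 in edgeR).

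Adamtsl1 (chr4:85432409-86346622), an ADAMTS-like protein of the matrix, was at 19.4, 26.5, 17.9 and 57.3 FPM under Control and at 26.8, 39.0, 26.0 and 81.6 FPM under ALL. The sets kept their own levels, and the step was alike in each, with log2 ratios between 0.46 and 0.56 (log2FC 0.52, SE 0.12, FDR 0.0172 in edgeR). Under HG + FFA it was above Control in all 4 sets as well, with a log2FC of 0.41 that did not pass (SE 0.12, FDR 0.177 in edgeR).

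Mmp15 (chr8:96078895-96101708), a membrane-type enzyme, rose from 13.2, 13.6, 8.25 and 8.10 FPM to 20.9, 17.3, 10.5 and 14 FPM under ALL. It was higher in each set, although the groups overlapped because sets 3 and 4 started lower (log2FC 0.54, SE 0.13, FDR 0.0189 in edgeR). HG + FFA and AII + NA gave log2FC of 0.30 and 0.32, neither past the threshold.

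Mmp2 (chr8:93553902-93580049), the constitutive gelatinase, was at 583, 1230, 136 and 1582 FPM under Control and at 524, 892, 114 and 978 FPM under ALL. The fall was in every set but small against the distance between sets, with a log2FC of -0.39 (SE 0.11, FDR 0.0472 in edgeR). Some of the exons of Mmp2 (24.3%) overlap a gene on the opposite strand. Mmp9, the inducible gelatinase, was below 3 FPM throughout and was called lower, from 0.09, 1.41, 0.57 and 2.17 FPM to 0.10, 0.11, 0.14 and 0.42 FPM. It dropped in sets 2, 3 and 4, while set 1 was near 0.1 FPM in both (log2FC -2.37, SE 0.50, FDR 0.00942 in edgeR). Mmp12 went from 2.19, 0.62, 0 and 0.83 FPM to 9.94, 2.19, 0.04 and 0.60 FPM. Sets 1 and 2 carried this change, set 3 was at or near 0 and set 4 was lower (log2FC 1.47, SE 0.42, FDR 0.0442 in edgeR). The sum of 6 macrophage and leukocyte markers, the cells known for Mmp12, was between 29.3 and 251 FPM in WT VSMC libraries. Its part in the change was not tested.

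**Figure D2:**
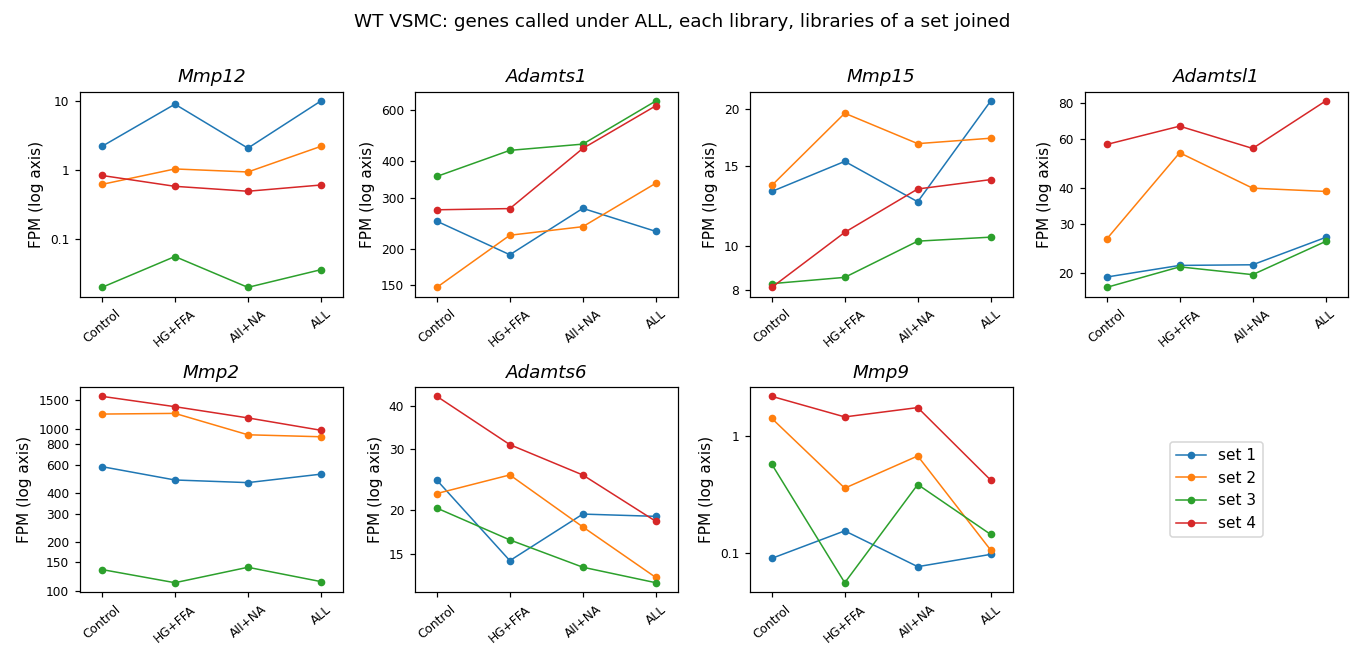
FPM (log axis) of the 7 members called in WT VSMC under ALL stressors, with 1 line for each of sets 1 to 4 across the 4 conditions; values of 0 are drawn at the lower edge. Adamtsl1, Mmp15, Adamts6 and Mmp2 move the same way in all 4 sets from Control to ALL, while Adamts1 and Mmp9 leave out set 1 and Mmp12 rests on sets 1 and 2.

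Several abundant members other than Mmp2 had log2FC near 0 in WT VSMC. For Timp2 the log2FC under ALL was 0.002 (SE 0.077), for Mmp14 -0.05 (SE 0.08), for Mmp3 -0.05 (SE 0.23) and for Adamts5 -0.06 (SE 0.10), none past the threshold. Adamts2 (log2FC -0.12, SE 0.08) and Timp3 (log2FC -0.01, SE 0.11) did not pass either. Timp1 was lower in each of 4 sets under ALL (1091, 565, 185 and 404 FPM under Control against 695, 386, 175 and 345 FPM) without passing (log2FC -0.38, SE 0.14, FDR 0.102 in edgeR). The smooth muscle marker sum was 473 to 1330 FPM in Control and 1220 to 1960 FPM in ALL libraries of WT VSMC, and the fibroblast marker sum 4870 to 11800 and 4530 to 8290 FPM. The part of these shifts in the members' changes was not tested.

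A departure from additivity, that is the log2FC under ALL less the sum of both single log2FC, was found for no member. In edgeR 0 of 36 were called (0 at an unadjusted p under 0.05, against 1.72%, and 0 in DESeq2), against 0% of all genes. For Adamts1 the departure was 0.21 (SE 0.23) and for Mmp15 -0.09 (SE 0.18). The calls in WT VSMC under ALL depended on the sets. Without set 1, 2, 3 or 4, edgeR called 4, 3, 2 and 1 of the members, and Mmp15 passed in 3 of these 4 fits, Adamts6 and Mmp9 in 2, Adamts1, Adamtsl1 and Mmp12 in 1 and Mmp2 in 0. How many of all genes passed in these fits was not counted. Without the set as a block, 0 were called.

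Of the wider proteolysis list, 2 of 40 genes tested were higher and 6 lower in WT VSMC under ALL. Elastin (Eln) rose from 147 to 393 FPM (log2FC 1.19, SE 0.21, FDR 0.00335 in edgeR). The matrix proteins Fbln1 (log2FC -0.61) and Fbn1 (log2FC -0.60), and Pcolce2 (log2FC -0.54), were the lower genes with the smallest FDR. This list was chosen with earlier results of these data known.

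In KO VSMC the result hung on set 5. With all sets, edgeR called 0 of 38 members tested under HG + FFA (9 at an unadjusted p under 0.05, against 12.4%), against 0.439% of all genes, and DESeq2 called 4, against 1.7%, namely Mmp13, Mmp15, Adamts7 and Adamts10, each higher. Under AII + NA (0% of all genes) and ALL (0.399%), edgeR and DESeq2 called 0, where DESeq2 called 0.0909% and 1.79% of all genes, with 5 and 11 members at an unadjusted p under 0.05, against 9.76% and 10.5%. Without set 5, which kept Egfr RNA, edgeR called 8 of 34 members under HG + FFA, against 8.57% of all genes, and 0 under AII + NA and ALL, against 0% and 1.04%. At an unadjusted p under 0.05 there were 14, 9 and 13, against 28.2%, 23.4% and 18% of all genes. DESeq2 without set 5 called 9, 4 and 2, against 20.6%, 13.7% and 4.54%.

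Those 8 were 6 higher and 2 lower. Mmp13 was at 1.25, 0.12, 1.43 and 1.80 FPM in the Control libraries of sets 5 to 8 and at 1.87, 0.64, 3.40 and 4.14 FPM under HG + FFA, higher in each set (log2FC 1.42, SE 0.30, FDR 0.0188 in edgeR without set 5, and 1.19, SE 0.25, FDR 0.0519 with it). Mmp15 was at 13.1, 15.2, 10.0 and 7.75 FPM and at 20.2, 20.8, 11.5 and 15.1 FPM. It too was higher in each set (log2FC 0.52, SE 0.14, FDR 0.0394 in edgeR without set 5).

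Adamts7, which cleaves cartilage oligomeric matrix protein and is known from studies of atherosclerosis, was at 19.7, 10.1, 13.5 and 25.8 FPM and at 26.6, 15.7, 17.7 and 34.1 FPM. Each set was higher by a log2 ratio of 0.39 to 0.64 (log2FC 0.48, SE 0.14, FDR 0.0448 in edgeR without set 5). Mmp16, Adamts10 and Adamts14 were the other higher ones, with log2FC of 0.47, 0.36 and 1.05. Timp1 went from 396, 478, 377 and 295 FPM to 438, 355, 256 and 132 FPM, lower in sets 6, 7 and 8 and higher in set 5 (log2FC -0.73, SE 0.14, FDR 0.0147 in edgeR without set 5). Mmp23 was the other lower member, with a log2FC of -0.57. Mmp3 was above Control in each set (842, 11.03, 101 and 493.2 FPM against 1478, 41.5, 175 and 513 FPM) but did not pass with or without set 5 (FDR 0.176 and 0.0554 in edgeR).

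With all sets, the test of the difference between genotypes gave no call among the members. For HG + FFA, AII + NA and ALL, edgeR called 0 of 38 members in each, against 0%, 0% and 0.0109% of all genes. At an unadjusted p under 0.05 there were 1, 4 and 2, against 3.08%, 11.9% and 7.42%, and DESeq2 called 0, against 0%, 0% and 0.412%. For Adamts1 the log2FC under ALL was higher in WT VSMC than in KO VSMC by 0.67 (SE 0.27, FDR 0.597 in edgeR). The same difference was -0.40 for Mmp2 (SE 0.17, FDR 0.603), 0.18 for Mmp15 (SE 0.19) and -0.34 for Adamts6 (SE 0.30). Without set 5 the count in edgeR was again 0 in all 3, against 0%, 0% and 0.0385% of all genes, with 7, 6 and 2 at an unadjusted p under 0.05, against 12.1%, 22.9% and 12.7%. DESeq2 without set 5 called 0, 4 and 0, against 0%, 13% and 1.02%, the 4 under AII + NA being Adamts6, Adamtsl1, Timp1 and Timp3. In edgeR the smallest FDR was that of Adamtsl1 under AII + NA, at 0.0611 (log2FC difference -1.07, SE 0.27). Thus the calls in WT VSMC under ALL and their lack in KO VSMC were not shown to differ by genotype.

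**Figure D3:**
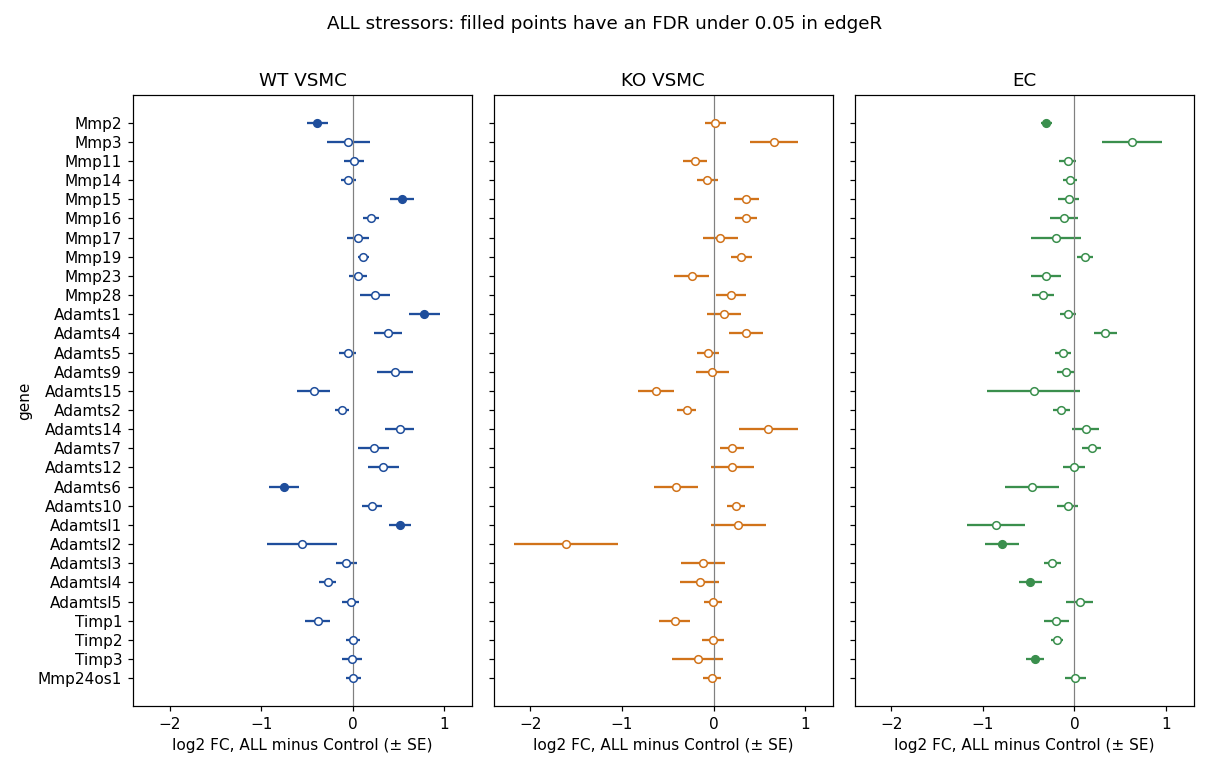
log2FC of ALL minus Control (horizontal axis) with its SE for the 30 members in each of the 3 cell types; filled points have an FDR under 0.05 in edgeR. The 5 filled points in WT VSMC lie on both sides of 0, KO VSMC has none, and the 4 filled points in EC are all below 0.

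Unstressed KO VSMC and WT VSMC were compared by their Control libraries. With all sets, edgeR called 0 of 36 members (5 at an unadjusted p under 0.05, against 12.2%), against 0.00622% of all genes, and DESeq2 called Adamts5 as the only member, against 2.14%. Adamts5 was at 1028, 594, 691 and 513 FPM in WT VSMC and at 481, 186, 253 and 339 FPM in KO VSMC. All KO VSMC libraries were below all WT VSMC libraries (log2FC -1.17, SE 0.33, FDR 0.328 in edgeR, and -1.45, SE 0.31, FDR 0.0524 without set 5). Serpine2, an inhibitor of thrombin and plasminogen activators, was the only gene of the wider list that passed in edgeR (333 FPM in KO VSMC against 61.0 FPM in WT VSMC, log2FC 2.45, SE 0.22, FDR 0.0172). Without set 5 its log2FC was 2.33 (SE 0.21, FDR 0.00578 in edgeR), and Fap and Plat were among the genes that passed then, both lower (log2FC -3.26 and -1.37).

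KO VSMC set 5 lay apart from the other KO VSMC sets in several members, and its set mean was within the range of the WT VSMC sets for 18 of the 30, against 70.1% of all genes. For Adamts6 the KO VSMC Control libraries were at 53.9, 4.81, 7.61 and 6.33 FPM, for Mmp2 at 913, 277, 172 and 367 FPM, and for Adamtsl1 at 18.7, 1.33, 2.27 and 5.81 FPM, with set 5 first. Without set 5, edgeR called 3 of 36 members, all lower in KO VSMC, against 2.41% of all genes. These were Adamts6 (log2FC -2.14, SE 0.32, FDR 0.0245), Adamtsl1 (log2FC -3.29, SE 0.63, FDR 0.0417) and Mmp19 (log2FC -0.77, SE 0.16, FDR 0.0488), and 18 members were at an unadjusted p under 0.05, against 25.7% of all genes. DESeq2 without set 5 called 12, of which 11 were lower, against 13.8%. The median log2FC was -0.75 over the members tested and -0.01 over all genes. Mmp19 shares 36.8% of its exons with genes on the opposite strand.

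Over all conditions, set means of KO VSMC sets 6, 7 and 8 were all below the 4 WT VSMC set means for 9 of the 30 members (Mmp3, Mmp17, Mmp19, Adamts1, Adamts2, Adamts5, Adamts6, Adamts15 and Adamtsl1), against 10.4% of all 12927 genes with at least 3 FPM in a cell type. They were all above them for Adamts10 alone, against 9.95% of all genes. Mmp3 was at 22.8, 131 and 441 FPM in sets 6, 7 and 8, against 1107 to 2206 FPM in WT VSMC sets and 1019 FPM in set 5. Adamts2 was at 338, 177 and 231 FPM in these sets, against 402 to 1426 FPM in WT VSMC sets and 967 FPM in set 5. The fibroblast marker sum was low in sets 6, 7 and 8 as well (1730, 2190 and 1530 FPM, against 4430 to 9780 FPM in WT VSMC sets). Among sets 6, 7 and 8, this sum did not rank as Mmp3 or Adamts2 did. The part of other cell types and of Egfr in these levels was not tested, and in set 5, which is a single animal, Egfr and the animal cannot be told apart.

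**Figure D4:**
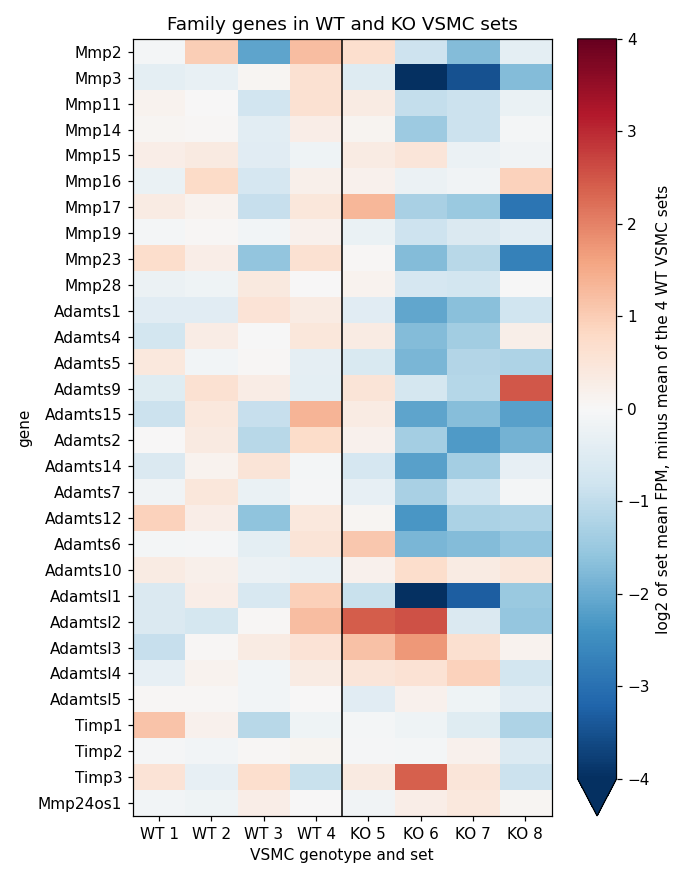
Set mean FPM of the 30 members in WT VSMC sets 1 to 4 and KO VSMC sets 5 to 8, as log2 (FPM + 0.1) minus the mean of the 4 WT VSMC sets; the colour scale ends at -4 and lower values have its darkest blue. Of the 30 members, 22, 24 and 24 are below the WT VSMC mean in sets 6, 7 and 8 and 11 in set 5. How many of all genes lie below that mean was not counted, so these counts cannot be set against a background.

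In EC the called members were all lower. Under HG + FFA, 3 of 36 members tested were called, against 3.53% of all genes (1.88% lower), and under ALL 4 of 36, against 3.18% (2.04% lower). At an unadjusted p under 0.05 there were 15 and 10, against 16.9% and 16.2%. Under AII + NA edgeR called 0 (0 at an unadjusted p under 0.05, against 6.67%, and 0 in DESeq2), against 0% of all genes. DESeq2 called 5 members under HG + FFA and 5 under ALL, against 7.01% and 5.91%. The median log2FC of the members tested was -0.10 and -0.11 under HG + FFA and ALL, where that of all genes was -0.003 and -0.01. These 2 comparisons share their Control libraries.

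Mmp2, which was called lower in WT VSMC under ALL as well, was called under both HG + FFA and ALL. It was at 137 to 895 FPM under Control (median 349 FPM), at 118 to 721 FPM under HG + FFA (median 288 FPM) and at 126 to 674 FPM under ALL (median 289 FPM). The groups overlapped widely, yet each of 9 sets with a Control library (8 animals) was lower under both HG + FFA and ALL (log2FC -0.26, SE 0.06, FDR 0.00573, and -0.31, SE 0.06, FDR 0.00155 in edgeR). It passed with any of the 10 EC sets left out. It did not pass with the animal as the block, without a block, or with only the 2 conditions compared in the fit.

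Timp3 (chr10:86136236-86185371) was at 335 to 3519 FPM under Control (median 1700 FPM) and at 215 to 2779 FPM under ALL (median 1511 FPM), lower in 7 of 9 sets and higher in 2 (log2FC -0.43, SE 0.10, FDR 0.00862 in edgeR). Under HG + FFA its log2FC was -0.29 and did not pass (FDR 0.0868). Some of the exons of Timp3 (21.3%) lie opposite to Syn3. Timp2, with a log2FC of -0.19 under ALL (SE 0.06, FDR 0.0897 in edgeR), did not pass in edgeR.

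Adamtsl2 (chr2:26949885-26998993) was at 2.72 to 295 FPM under Control (median 19.8 FPM), 0.69 to 214 FPM under HG + FFA (median 15.5 FPM) and 1.70 to 172 FPM under ALL (median 13.5 FPM). It was lower in 8 of 9 sets under HG + FFA and in 9 of 9 under ALL, where set 11 hardly moved (172.3 and 171.8 FPM). The log2FC was -0.73 (SE 0.18, FDR 0.0186 in edgeR) and -0.79 (SE 0.18, FDR 0.0112), and it was the member that met the DEG rule of the study in both, against 0.641% and 0.636% of all genes. Adamtsl4 was at 36.7 to 86.1 FPM under Control (median 43.7 FPM), 20.8 to 69.9 FPM under HG + FFA (median 38.4 FPM) and 22.0 to 75.97 FPM under ALL (median 34.2 FPM). It was lower in 9 and in 8 of 9 sets (log2FC -0.43, SE 0.13, FDR 0.0482, and -0.48, SE 0.13, FDR 0.0261 in edgeR).

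**Figure D5:**
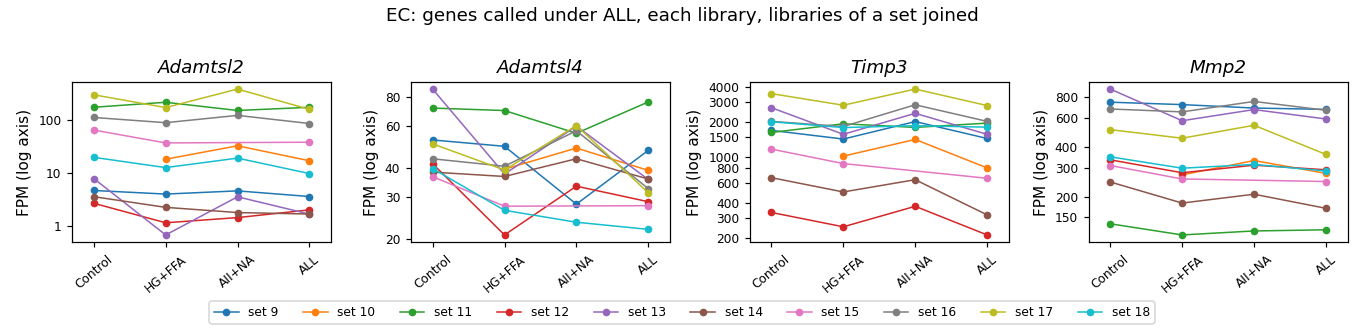
FPM (log axis) of the 4 members called in EC under ALL stressors, with 1 line for each of sets 9 to 18 across the conditions that were analysed. The distance between sets is larger than the step from Control to ALL, which is downwards in 9 of 9 sets for Adamtsl2 and Mmp2, 8 for Adamtsl4 and 7 for Timp3. These 9 sets came from 8 animals.

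The EC calls needed the set as a block. Without it, or with the animal in its place, edgeR called 0 members under HG + FFA and ALL. Without EC sets 15 and 16, Mmp2 alone passed under HG + FFA, and Adamtsl2, Mmp2 and Timp3 under ALL, where the share of all genes called was not counted. The fibroblast marker sum had a median of 3410 FPM in Control, 2630 FPM in HG + FFA and 2690 FPM in ALL libraries of EC, and the endothelial marker sum 742, 1370 and 1270 FPM, where Control lacks set 10. The part of these shifts in the calls was not tested. Of the other members called in WT VSMC under ALL, Mmp12 was not tested in EC and 5 did not pass, with a log2FC of -0.07 for Adamts1 (SE 0.09) and -0.06 for Mmp15 (SE 0.12), and a difference between cell types was not tested.

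Of the wider proteolysis list, 1 of 42 genes was higher and 3 were lower in EC under HG + FFA, and 5 were lower under ALL. The serine protease Htra1 fell from 173 FPM to 122 and 125 FPM (log2FC -0.47, SE 0.08, FDR 0.000826, and -0.48, SE 0.08, FDR 0.000586 in edgeR). The sheddase Adam9 was higher under HG + FFA (370 against 463 FPM, log2FC 0.32). Under ALL, the urokinase gene Plau fell from 129 to 92.0 FPM (log2FC -0.44), and Eln, which rose in WT VSMC, fell from 142 to 86.9 FPM (log2FC -0.89, SE 0.25, FDR 0.0397 in edgeR).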

How the data were processed

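Per the labels and the methods of the study, the authors aligned reads with HISAT2 2.1.0 to mm39 and counted them per gene with featureCounts, multi-mapping reads included, and deposited raw counts. The strand setting is not given in the sources used here. Counts on identifiers outside the GRCm39 annotation made up 0.024%. These identifiers stayed in the library sizes and, where they passed the filter on low counts, in the tests over all genes. FPM came from 1 TMM scaling over all 69 libraries, FPKM from FPM and exonic length. Genes were tested in edgeR 4.0.16 (R 4.3.3; quasi-likelihood, filterByExpr, TMM) with treatment and set as terms, in 1 model for each cell type, and called at an FDR under 0.05 over all genes tested. SE is the absolute log2FC over the square root of F. DESeq2 1.42.0 and other alternatives are given in the closing section. Log2 ratios of single sets used a pseudocount of 0.1 FPM. Library counts were 23626664 to 37801299 (WT VSMC), 23238979 to 35120866 (KO VSMC) and 17166133 to 43240489 (EC). They limit the precision of members below 3 FPM most.

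Libraries of a set share an animal, and their deviations from group means correlated at a mean r of 0.809, 0.802 and 0.863 within sets of WT VSMC, KO VSMC and EC. Between sets the mean r was -0.274, -0.285 and -0.0943, and subtracting the group mean makes such values negative by itself. Named were members with at least 3 FPM in a cell type, members called, and up to 5 genes of the proteolysis list for each comparison. Members and lists were chosen with earlier results of these data known. Promoters were RefSeq entries of GRCm38.p6. Where sets were left out, the same models were fitted without them. Of the proteolysis list, 1 called gene is not reported here.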

Additional observations from a re-analysis of the deposited data

Results flagged for a closer look

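In 36 groups of 4 to 10 libraries checked for a library far from the others, 4 were found, where chance flags about 1 in 20 groups. Mmp9 in WT VSMC under ALL was at 0.419 FPM in set 4, with the next library at 0.144 FPM. Adamtsl2 in WT VSMC Control was at 2.24 FPM in set 4, with the next at 0.45 FPM. Adamtsl4 in EC under ALL was at 75.97 FPM in set 11, with the next at 47.4 FPM. Adamtsl5 in EC Control was at 100.2 FPM in set 13, with the next at 47.9 FPM.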

How the results depend on the processing

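Counts of called members are given. The share of all genes called was not counted for several of these fits. They are those without the filter, with only the 2 conditions, without EC sets 15 and 16, and with 1 set other than KO VSMC set 5 left out. Their counts show how the calls depend on the processing and cannot be set against a background. With no filter on low counts they were 2, 3 and 12 for HG + FFA, AII + NA and ALL in WT VSMC, 7, 5 and 4 in KO VSMC, 8, 1 and 7 in EC, and 1, 5 and 2 for the genotype differences. DESeq2 gave 4 for KO VSMC under HG + FFA, 5 for EC under HG + FFA, 1 for KO VSMC against WT VSMC and 12 for EC against WT VSMC. With only the 2 conditions compared in the fit, AII + NA in WT VSMC gave 2, HG + FFA in EC 0 and ALL in EC 1. The DEG rule of the study gave 3 for ALL in WT VSMC and 1 each for HG + FFA and ALL in EC. Without EC sets 15 and 16, an alternative chosen after seeing the data, HG + FFA in EC gave 1 and EC against WT VSMC 2. DESeq2 with KO VSMC set 5 left out, also chosen after seeing the data, gave 9, 4 and 2 for HG + FFA, AII + NA and ALL in KO VSMC, 4 for the genotype difference under AII + NA and 12 for KO VSMC against WT VSMC. The cause of these shifts was not tested.

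Without the replicate block (the set, whose libraries are paired by animal), 0 members were called for ALL in WT VSMC and for HG + FFA and ALL in EC, as with the animal as block in EC. The block changed no other count.

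With 1 set left out, counts ran from 1 to 4 for ALL in WT VSMC, 0 to 8 for HG + FFA in KO VSMC (8 without set 5), 1 to 5 for HG + FFA in EC (5 without set 11, 1 without set 12 or 15), 3 to 5 for ALL in EC, 0 to 3 for KO VSMC against WT VSMC (3 without set 5) and 2 to 13 for EC against WT VSMC (11 without set 11, 13 without set 13). No member called in WT VSMC under ALL, in EC, or in EC against WT VSMC reversed its direction under an alternative run. Other named members were not followed in this way.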
